A study of Canis lupus familiaris with 10 samples.

Results

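FABP7 and SERPINB2 were the 2 genes, of 800 on the panel, whose measured level was highest in early over late canine cutaneous histiocytoma (CCH). They were chosen by that measured difference between stage means, so it is described here tumour by tumour and carries no test. CCH is a benign skin tumour of dogs that derives from Langerhans cells, the dendritic cells of the epidermis, and commonly regresses as lymphocytes enter it. RNA from formalin-fixed, paraffin-embedded (FFPE) tumours was hybridised to the nCounter Canine IO Panel, which counts barcoded probes without amplification. By the scheme of Cockerell and Slauson the 5 early tumours were group 1 and the 5 late tumours group 3, and no treatment is named. The labels also call all 5 late tumours, and no early tumour, enriched in lymphocytes.

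The 10 tumours came from 10 dogs, so that the spread within a stage is spread between dogs. The early tumours came from a male neutered French Bulldog of 0.5 years (early 1), a male Goldendoodle of 0.75 years (early 2), a Terrier of unstated age and sex (early 3), a male neutered Boxer of 5 years (early 4) and a female French Bulldog of 3 years (early 5). The late tumours came from a male neutered Rottweiler of 1.5 years (late 1), a female Beagle of 9 years (late 2), a male Pug of 2.5 years (late 3), a male Bullterrier of 2 years (late 4) and a male Jack Russell Terrier of 7 years (late 5). The samples are bulk tumour tissue, in which fewer cells of a type and less RNA per cell cannot be told apart.

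FABP7 is a fatty acid binding protein, a small cytoplasmic carrier of long-chain fatty acids that is best known from radial glia and other glial cells. SERPINB2, also called plasminogen activator inhibitor type 2, is a serine protease inhibitor of urokinase that is made by stimulated monocytes and macrophages and by keratinocytes. In the skin, urokinase and its receptor generate plasmin at the cell surface, and serpins limit that activity.

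Levels are given as normalized counts, a linear unit in which the authors scaled the barcode counts of each tumour. A recovered count is the normalized count divided by the worth of 1 barcode in that tumour and rounded to a whole number. A tumour's background is set at 2 SD above the mean of 8 negative probes, which match no transcript. In normalized counts it averaged 32.6 in the early and 21.9 in the late tumours. A gene at equal level is thus above background more readily in late CCH. Intervals in brackets are exact 95% Poisson intervals, which cover counting error only.

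FABP7 was well above background in each early tumour. It measured 113 normalized counts in early 1 (92.8 to 137), 156 in early 2 (126 to 191), 112 in early 3 (85.7 to 144), 267 in early 4 (227 to 311) and 265 in early 5 (223 to 313). In counting error alone, the intervals of early 1, 2 and 3 overlapped, as did those of early 4 and 5, and the higher pair lay above the other 3. The French Bulldog tumours, early 1 and early 5, were 113 and 265.

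In late CCH, FABP7 was above background in late 1 alone. It measured 39.7 normalized counts in late 1 (27.1 to 56.0), 1.11 in late 2, 15.1 in late 3 (8.26 to 25.4), 1.00 in late 4 and 1.08 in late 5. Late 1 was 1.94 times its background, late 3 lay at 0.692 times its background, and the other 3 held the lowest value that any gene had in that tumour. No late tumour reached any early tumour, and the lowest early value was 2.82 times the highest late value. The mean was 183 ± 78.2 (SD, n = 5) over the early tumours and 11.6 ± 16.8 (SD, n = 5) over the late ones.

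**Figure D1:**
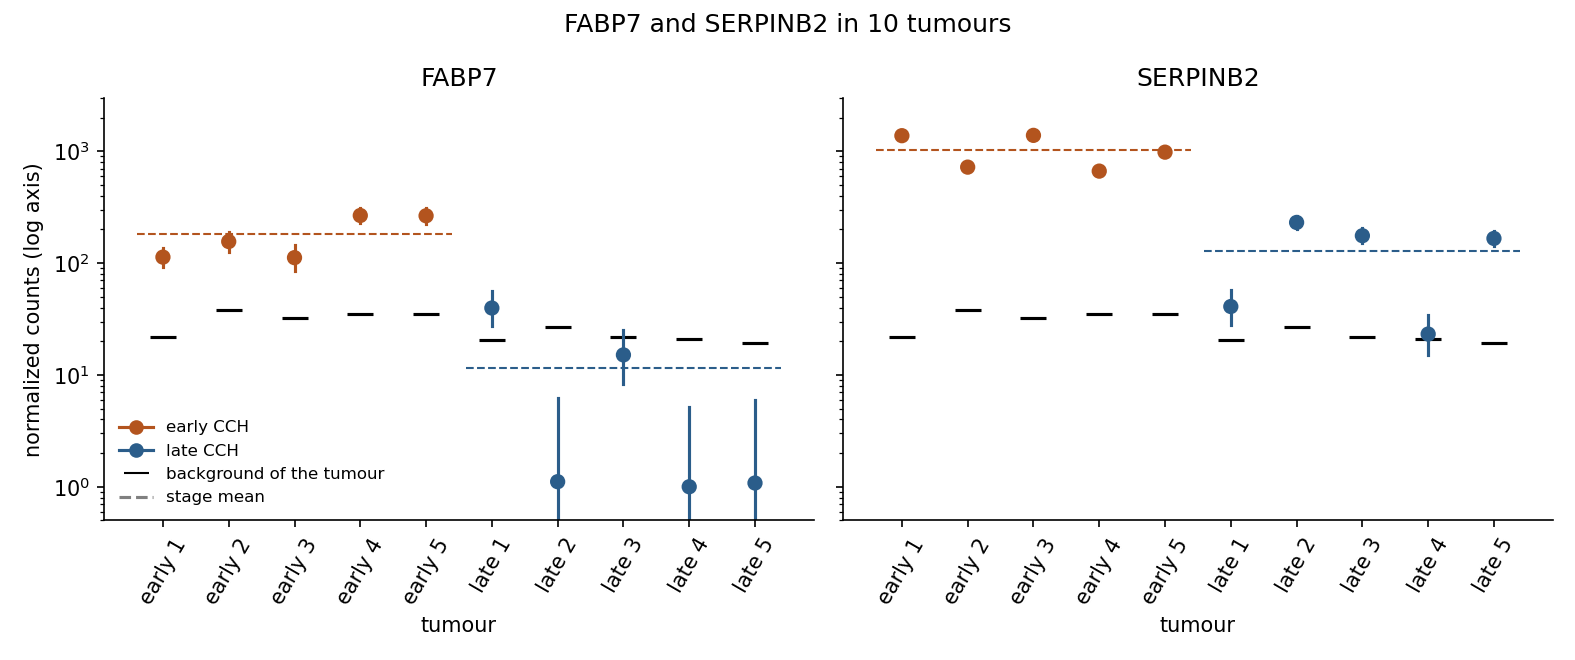
Normalized counts (log axis) of FABP7 (left) and SERPINB2 (right) in each of 5 early and 5 late tumours. Points are single tumours with exact 95% Poisson intervals, short black bars are the background of that tumour and dashed lines are stage means. For FABP7 only late 1 of the late tumours is above its bar. SERPINB2 is above its bar in all 10, though its interval in late 4 spans the bar.

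SERPINB2 was far above background in early CCH and was still detected in late CCH. It measured 1381 normalized counts in early 1 (1307 to 1458), 723 in early 2 (656 to 795), 1390 in early 3 (1292 to 1492), 666 in early 4 (602 to 734) and 983 in early 5 (901 to 1072). These values were 18.9 to 63.3 times the background. Early 4 and 2 had overlapping intervals, as had early 1 and 3, and early 5 lay apart from both pairs.

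In late CCH, SERPINB2 measured 40.9 normalized counts in late 1 (28.2 to 57.5), 231 in late 2 (201 to 265), 176 in late 3 (150 to 205), 23.2 in late 4 (15.0 to 34.3) and 166 in late 5 (141 to 195). Late 1 and 4 formed a low pair with overlapping intervals, at 2.00 and 1.10 times their background, and the other 3 tumours lay at 8.06 to 8.68 times theirs. No late tumour reached any early tumour, and the lowest early value was 2.88 times the highest late value. The mean was 1028 ± 347 (SD, n = 5) over the early tumours and 128 ± 90.8 (SD, n = 5) over the late ones.

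The genes did not order the tumours alike. From low to high, FABP7 ordered the early tumours 3, 1, 2, 5 and 4, whereas SERPINB2 ordered them 4, 2, 5, 1 and 3. The ratio of SERPINB2 to FABP7, read only between tumours because the probes were not calibrated against each other, was 12.2, 4.63, 12.4, 2.49 and 3.71 in early 1 to 5. In late 1, where FABP7 was highest among late tumours, FABP7 and SERPINB2 were both near background, at 1.94 and 2.00 times it, and the ratio was 1.03. In late 2, where SERPINB2 was highest among late tumours, FABP7 was at its minimum.

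The low FABP7 values stood apart from the negative probes as well as from the early tumours. In late 2, 4 and 5 the recovered count was 1, while the lowest negative probe counted 6, 6 and 3. All 8 negative probes exceeded FABP7 in these 3 tumours, and in late 3 FABP7, with 14 counts, exceeded 6 of 8. The next-lowest gene above the minimum had 4 counts in late 2, 5 in late 4 and 4 in late 5, so that no gene lay between 1 count and those values. FABP7 held the minimum alone in late 2, with 3 other genes in late 4 and with 5 other genes in late 5. No gene was listed at 0 in any tumour. In late 4 the minimum of 1.00 was 1.08 times the worth of 1 barcode, so that its count of 1 is whole only by rounding. What the minimum stands for is not given in the sources used here, and these values are read only as below background.

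**Figure D2:**
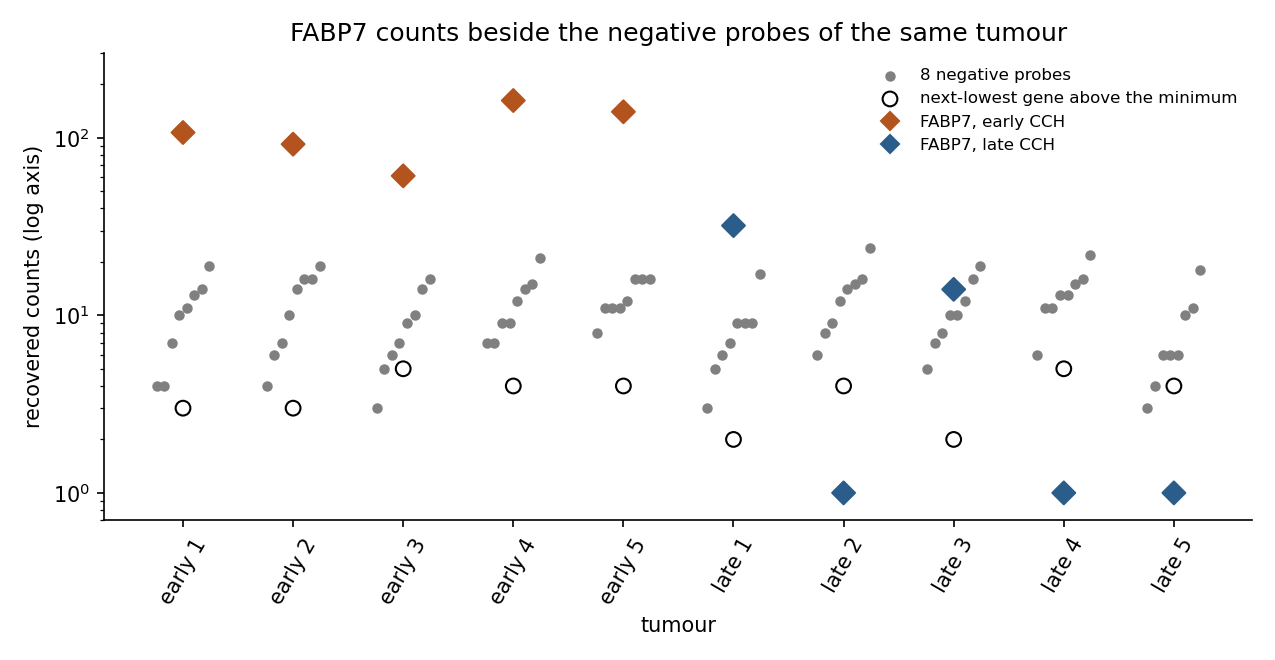
Recovered counts (log axis) of FABP7 (diamonds) in each tumour beside the 8 negative probes of the same tumour (grey points) and the next-lowest gene above the minimum (open circles). FABP7 is above all 8 negative probes in the 5 early tumours and late 1, among them in late 3 with 14 counts, and below all of them in late 2, 4 and 5 with 1 count.

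Only DEFB1, a defensin gene, and FABP7 were at 1 recovered count in at least 3 late tumours, with the late 4 minimum rounded to 1. DEFB1 was at 1 count in 4 late and in all 5 early tumours, whereas FABP7 was at 1 count in 3 late and in 0 early tumours. FABP7 was also the 1 gene of 800 that was above background in every early and in at most 1 late tumour. Its choice by the stage difference favours that pattern, which is therefore a description only. The pattern with the stages exchanged was shown by 13 genes, and the lower late background in normalized counts favours it. SERPINB2 was above background in 5 of 5 tumours of each stage, although in late 4, at 1.10 times background, its counting interval spanned it.

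The size of the FABP7 difference therefore depended on how values below background were treated, and that of SERPINB2 hardly did. On the scale log2(normalized count + 1), with values as deposited, early minus late was 4.92 for FABP7 and 3.40 for SERPINB2. The added 1 narrows differences between low values. Taking late FABP7 values below background as deposited nevertheless gave a larger difference than raising them. With values raised to the background of their own tumour, which raised 4 late FABP7 values and 0 SERPINB2 values, the differences were 2.72 and 3.40. With the highest background of any tumour, 38.2 normalized counts, as a common floor, they were 2.11 and 3.26. With the mean of the negative probes subtracted they were 5.23 and 3.71. The ratio of stage means was 15.8 for FABP7 as deposited and 4.75 with the common floor, and for SERPINB2 it was 8.06 and 7.88. The gap between the lowest early and the highest late tumour, 1.47 for FABP7 and 1.52 for SERPINB2 on the log2 scale, involved no value under the background.

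**Figure D3:**
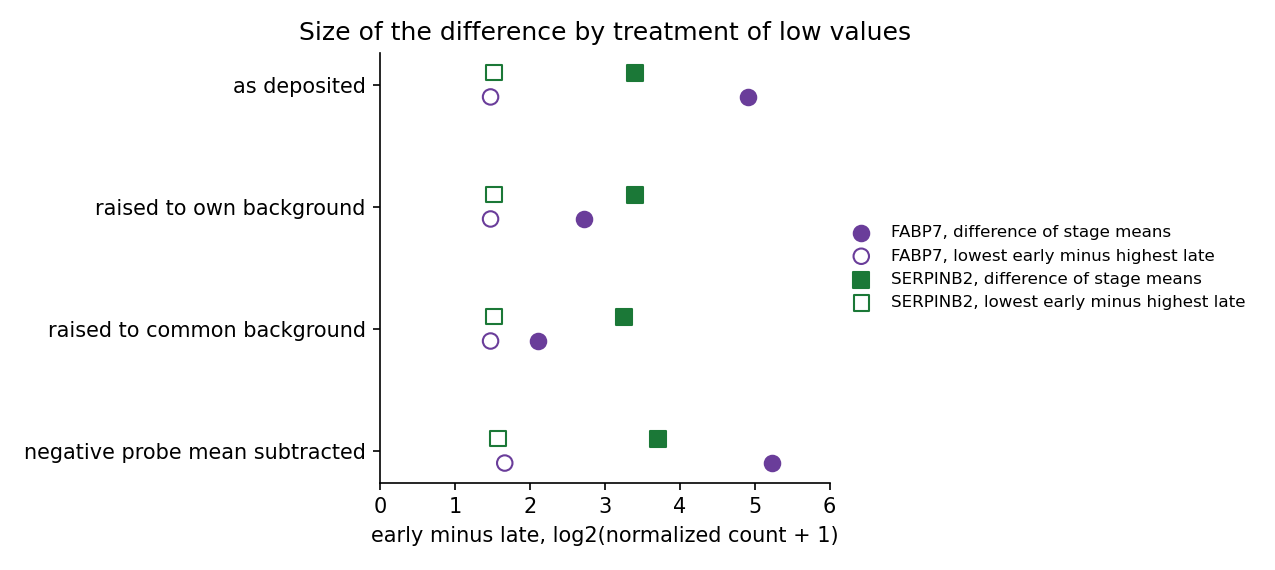
Early minus late difference of FABP7 (circles) and SERPINB2 (squares) on the log2(normalized count + 1) scale under 4 treatments of low values. Filled symbols are differences of stage means and open symbols the lowest early minus the highest late tumour; filled FABP7 symbols move between 2.11 and 5.23 and filled SERPINB2 symbols between 3.26 and 3.71.

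Both genes led the order of all 761 tested genes by construction. The next genes in that order were FLT3, a receptor tyrosine kinase of dendritic cell development, FCER1A, the alpha chain of the high-affinity IgE receptor, and TNFSF11, the cytokine RANKL. FLT3 averaged 2379 ± 843 (SD, n = 5) in the early tumours against 415 ± 170 (SD, n = 5) in the late ones, a log2 difference of 2.49 (SE 0.35, limma BY adjusted p = 0.0102). FCER1A had 2.44 (SE 0.50, limma BY adjusted p = 0.0353) and TNFSF11 had 2.29 (SE 0.39, limma BY adjusted p = 0.0168). FCER1A kept its call in 2 of 10 fits that left out a tumour (those without early 1 or early 2), and TNFSF11 lost it without late 1 and without late 4. Calling required a change of at least 2-fold and a p of at most 0.05 after adjustment by the Benjamini-Yekutieli (BY) procedure. That called 15 genes higher in early CCH, 1.97% of those tested, and 70 higher in late CCH, 9.2%. The study used the same adjustment and thresholds in its own software. It reported no differentially expressed gene on this panel for these tumours, so that the calls here differ from its result. Every early tumour lay above every late tumour in 41 genes, 5.39% of those tested, a set that holds FABP7 and SERPINB2 by their choice.

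**Figure D4:**
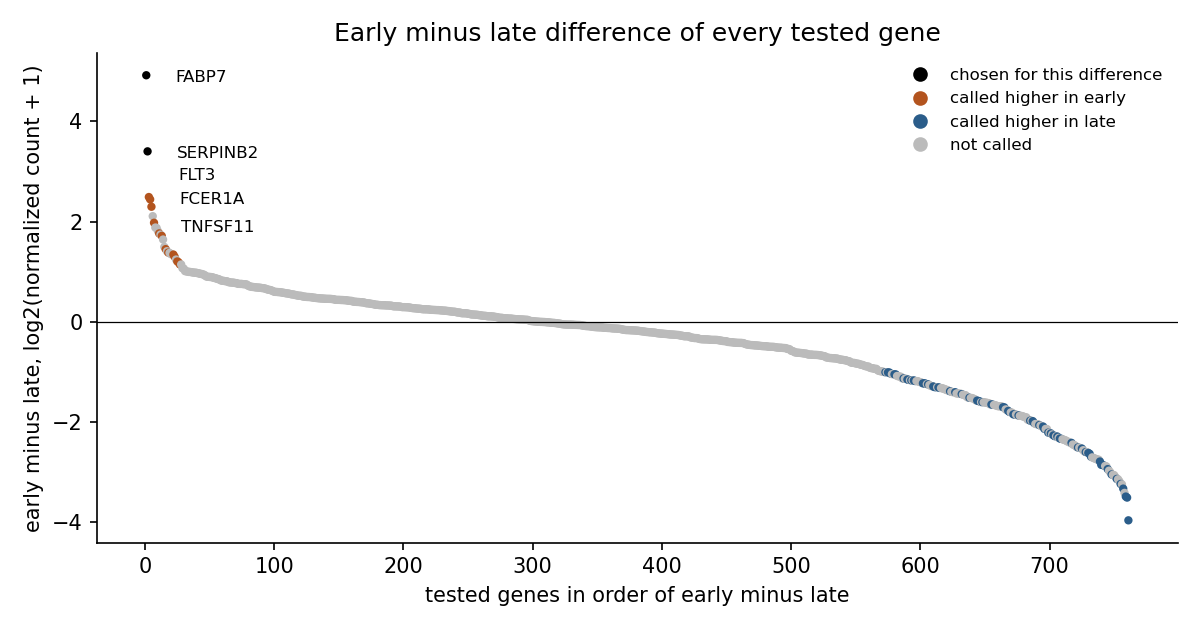
Early minus late difference on the log2(normalized count + 1) scale for each of 761 tested genes in descending order. Black points are the chosen genes, FABP7 at 4.92 and SERPINB2 at 3.40, orange and blue points are genes called higher in early and in late CCH, and grey points were not called; FLT3, FCER1A and TNFSF11 follow from 2.49 to 2.29.

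Likeness of pattern was measured as the root mean square difference over the 10 tumours between log2 values that had been raised to the common floor and centred on each gene's mean. The genes nearest to FABP7 were NF1 (0.48), a negative regulator of Ras, FCER1A (0.53), DUSP6 (0.54), a phosphatase of ERK, TYROBP (0.55), a signalling adaptor of myeloid cells, and CREB5 (0.55), a transcription factor, against a median of 1.28 over all genes. Those nearest to SERPINB2 were FLT3 (0.94), CCR6 (0.94), a chemokine receptor, NF1 (1.02), LOC487977 (1.09) and LIF (1.09), a cytokine, against a median of 1.96. FABP7 was seventh in the order of likeness to SERPINB2 with 1.18, and SERPINB2 was number 305 in the order of likeness to FABP7. All of these tumours share the stage difference by which the genes were chosen, so the measure is a description.

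Of the 8 other tested genes of plasminogen activation and of the serpin family, 0 were called as higher in early CCH and 1 as higher in late CCH, beside 1.97% and 9.2% of all tested genes, so that neither count sets the list apart. They had a median log2 difference of -0.21 beside -0.18 over all tested genes. The called gene was SERPING1, the inhibitor of complement C1, at 1866 ± 409 (SD, n = 5) in the early tumours against 4327 ± 583 (SD, n = 5) in the late ones, a log2 difference of -1.23 (SE 0.18, limma BY adjusted p = 0.0118). With each tumour scaled to the geometric mean of its genes SERPING1 had -0.84 and was not called. PLAU, which encodes urokinase, the target of SERPINB2, had -1.04 (SE 0.42, limma BY adjusted p = 0.560). PLAU measured 204, 444, 93.6, 125 and 174 normalized counts in early 1 to 5 and 398, 472, 200, 332 and 563 in late 1 to 5, so that the stages overlapped. Its receptor gene PLAUR had -0.14 and was above background in all 10 tumours. F13A1, the A subunit of coagulation factor XIII, had 0.68, THBD, thrombomodulin, -0.66, THBS1, thrombospondin, -0.29, LRP1, a clearance receptor, 0.066 and S100A10, a plasminogen receptor subunit, 0.048, and none of these passed the test. In fits that left out a tumour F13A1 was 0.21 to 1.14 and THBD -0.94 to -0.40.

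Of 8 other tested genes of fatty acid and lipid handling, 0 were called as higher in early CCH, where 1.97% of all tested genes were, and 2 as higher in late CCH, where 9.2% were. They had a median log2 difference of -0.34. NR1H3, the oxysterol receptor LXR alpha, had -3.13 (SE 0.60, limma BY adjusted p = 0.0286), and APOE, apolipoprotein E, had -2.06 (SE 0.39, limma BY adjusted p = 0.0284). APOE measured 1236, 1187, 883, 786 and 1270 normalized counts in early 1 to 5 and 7645, 1792, 4884, 7949 and 3057 in late 1 to 5, without overlap. In fits that left out a tumour, NR1H3 was -2.81 to -3.54 and kept its call in 3 of 10 (without early 2, early 3 or late 3), and APOE was -1.84 to -2.38 and kept it in 2 of 10 (without late 2 or late 5). With geometric mean scaling NR1H3 was called (-2.74, limma BY adjusted p = 0.0377) and APOE was not (-1.67, limma BY adjusted p = 0.0872). MSR1, a scavenger receptor, had -1.67 and passed only the Benjamini-Hochberg (BH) threshold (adjusted p = 0.0369, limma), by which 27.3% of tested genes were higher in late and 8.41% higher in early CCH. PPARG, a fatty acid-activated nuclear receptor, had -0.51, CD36, a fatty acid translocase, -0.16, and the prostaglandin genes PTGS2 and PTGER4 -0.12 and -0.055, and none of these passed the test. PTGER2, a prostaglandin receptor gene, was above background in 0 early and 2 late tumours, and its difference of -0.052 rests on values at background.

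**Figure D5:**
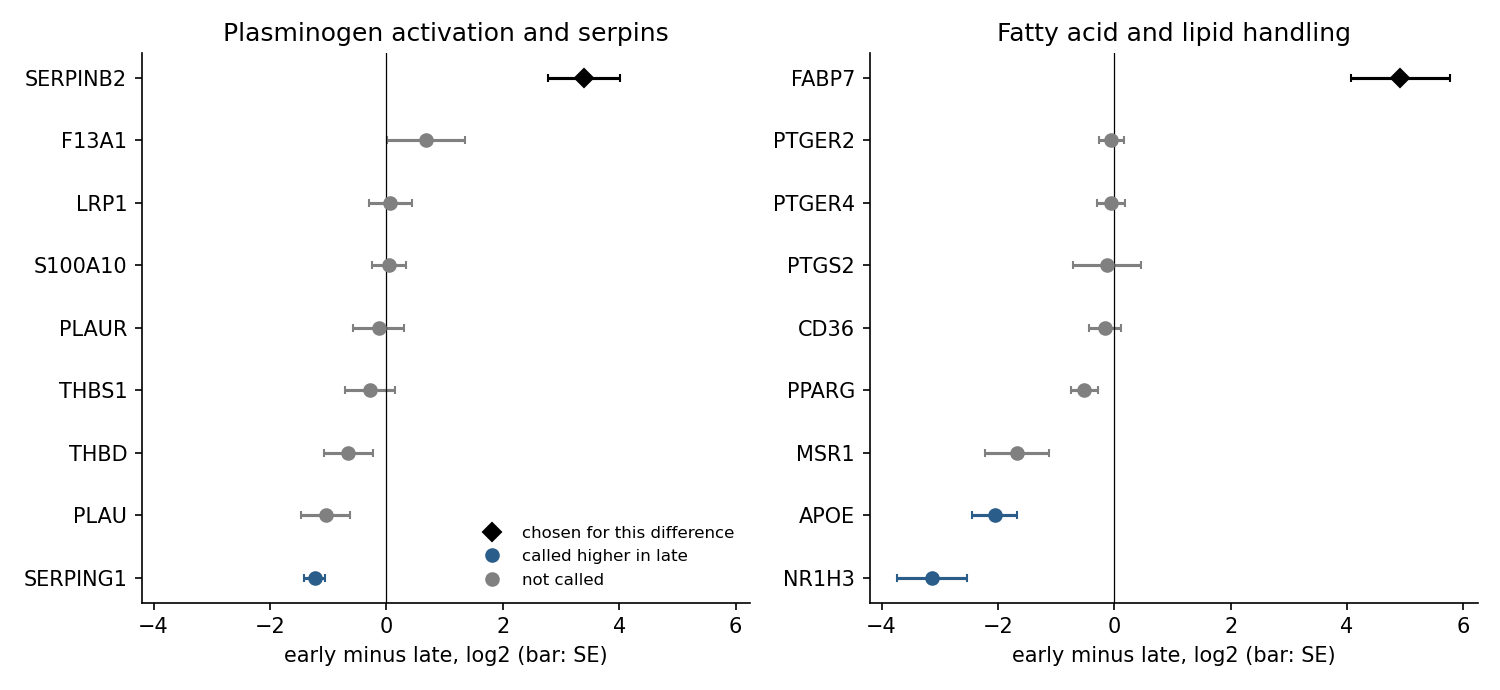
Early minus late log2 difference (bar: SE) of the tested genes of plasminogen activation and serpins (left) and of fatty acid and lipid handling (right). SERPINB2 and FABP7 (black) were chosen for this difference; of the others SERPING1, APOE and NR1H3 (blue) were called higher in late CCH, from -1.23 to -3.13, and the grey genes were not called.

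FABP7 is a target of Notch signalling in radial glia, and SERPINB2 is inducible by inflammatory signals in macrophages. The shares of all tested genes called, 1.97% higher in early and 9.2% in late CCH, are the measure for the counts that follow. Of 2 tested Notch genes, NOTCH1 was called higher in late CCH at -1.05 (SE 0.17, limma BY adjusted p = 0.0141; not called without early 5), and LFNG, a glycosyltransferase that modifies Notch, had 0.68 (limma BY adjusted p = 0.455). Of 20 tested inflammatory genes, 0 were called as higher in early CCH and 5 as higher in late CCH, namely CCL4, a chemokine, at -2.78, NFKBIA at -1.30, ICAM1 at -1.25, NFKB2 at -1.13 and TNFAIP3 at -1.03 (limma BY adjusted p from 0.0102 to 0.0241). CCL4 and TNFAIP3 each lost the call in 5 of 10 fits that left out a tumour, and with geometric mean scaling CCL4 alone of the 5 was called and NOTCH1, at -0.66, was not. IL1B had the highest difference of that list as deposited, 0.98, and was not called. It was above background in 3 early and 2 late tumours, and its difference was 0.27 with the common floor and 0.38 without early 2, both below the 0.59 that IL1A had with all tumours and no floor. Of 4 genes on the matrix protease list 0 were called, between MMP9, a gelatinase, at -0.12 and CTSW at -2.46. CTSW encodes cathepsin W, known from cytotoxic lymphocytes rather than from matrix breakdown.

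Markers of cell types in which these genes are known were set beside them. Of the glial and neural genes, a list added after the values were seen, OLIG2 and SOX10 were below background in all 10 tumours. GFAP, the glial filament, was above background in 2 early and 5 late tumours, with means of 35.5 and 37.6 normalized counts. The summed level of these 8 genes was 382 to 615 in early and 525 to 656 in late CCH. Of the 6 that were tested 0 were called, and their differences went both ways. MAP2, a neuronal microtubule protein, was 73.7 in early and 37.7 in late CCH without overlap (log2 difference 0.95, limma BH adjusted p = 0.0123), the direction of FABP7. CNP, a myelin enzyme, was 215 and 374 without overlap (-0.81, limma BH adjusted p = 0.00523), the opposite direction. TUBB3 and S100B had 0.19 and 0.083. NCAM1, above background in 1 early and 3 late tumours, and GFAP had 0.25 and -0.21, differences of values near background.

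For SERPINB2, the 6 keratinocyte markers summed to 961 to 6186 normalized counts in early and 861 to 4069 in late CCH, 5 of them were above background in every tumour of each stage, and 0 were called. Within early CCH, early 1 and early 3, with nearly equal SERPINB2, had sums of 6186 and 1625, and early 4, with the lowest SERPINB2, had 5907. Within late CCH, late 2 and 5, with SERPINB2 at 231 and 166, had the highest sums, 3529 and 4069, late 1 and 4, low in SERPINB2, had 861 and 1135, and late 3, with SERPINB2 at 176, had 881. The high sums were mostly KRT14, with 5239 in early 1, 3975 in early 4, 2414 in late 2 and 3382 in late 5. KRT14 was 463 in early 3 and 201 in late 3, so that the order of the sums is largely that of 1 gene. The 11 macrophage markers summed to 3586 to 15746 in early and 10736 to 19362 in late CCH, with a median log2 difference of -1.29. Of these, 1 was called, CD68 at -1.29 (limma BY adjusted p = 0.0293), 3 of 11 were higher in late CCH by BH, near the 27.3% of all tested genes, and MRC1, at 1.00, had the highest difference and was not called.

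By median difference, the T cell markers differed most by stage among the cell type lists. The 12 markers summed to 664 to 12405 normalized counts in early and 18593 to 32528 in late CCH, without overlap, with a median log2 difference of -2.91. By BY 3 of 12, and by BH 12 of 12, were higher in late CCH, beside 9.2% and 27.3% of all tested genes, in the stage in which FABP7 and SERPINB2 were low. Within a stage the sums had no uniform order with either gene. Late 1 and 4, with the highest late sums, 32528 and 30783, were low in SERPINB2, but late 1 had the highest late FABP7, and early 3, with the highest early sum, 12405, had the highest SERPINB2. The 5 mast cell markers summed to 309 to 1466 in early and 338 to 661 in late CCH, and 3 of them, CPA3 at 1.38, MS4A2 at 0.97 and HDC at 0.94, were higher in early CCH by BH, beside 8.41% of all tested genes, and 0 by BY, while KIT had -0.10 and CMA1 -0.41. HDC was above background in 2 early and 0 late tumours, so that its difference rests on values near background. FCER1A, named above, is expressed by mast cells as well as by dendritic cells. The part of cell composition in the level of either gene was not tested.

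Among the 13 Langerhans and dendritic cell markers, summed at 8885 to 14603 in early and 7748 to 12684 in late CCH, CD207, the defining langerin gene, was above background in 1 of 5 early and 1 of 5 late tumours. CD1C was above background in 0 early and 5 late tumours, and FLT3 in all 10. Such counts favour late CCH, where the background in normalized counts was lower. The list moved in both directions: FLT3, FCER1A and CD86 (0.97) were higher in early CCH by BH, and CD83 (-1.30), IRF8 (-1.43), XCR1 (-1.60) and CCR7 (-1.68) higher in late CCH, with a median of -0.13. By BH that was 3 and 4 of 13, beside 8.41% and 27.3% of all tested genes. The late count was thus near that of the panel and the early count above it. By BY it was 2 and 0 of 13, beside 1.97% and 9.2%.

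The tumours also differed by stage in measures of the whole sample. Of these, the recovered total sums the counts of all panel genes. The worth of 1 count, and with it the background in normalized counts, depends on the authors' scaling, which used housekeeping genes. The recovered total was 484696 to 823763 counts in early and 945399 to 1253083 in late CCH (exact two-sided permutation p = 0.00794, BH adjusted over 6 measures 0.0238, the smallest p possible being 0.00794). DV200, the percentage of RNA fragments above a length limit, averaged 68.5 in the early and 73.2 in the late tumours (exact permutation p = 0.0238, adjusted 0.0357). For late 5 the DV200 label, used here, differs from the study's own quality table. The background in normalized counts averaged 32.6 ± 6.37 in the early and 21.9 ± 2.99 in the late tumours (SD, n = 5 each, exact permutation p = 0.0238), whereas in unscaled counts it was 20.2 and 20.3 (exact permutation p = 0.944), and 1 count was worth 1.63 and 1.09 normalized counts (exact permutation p = 0.0397). The ratio of the strongest positive controls was 2.13 and 2.78 without overlap (exact permutation p = 0.00794). In unscaled counts FABP7 summed to 562 in early and 49 in late CCH, and SERPINB2 to 3411 and 584, at the lower early depth. With DV200 as a covariate early minus late was 5.21 for FABP7 and 4.33 for SERPINB2, and that fit called 0 of all tested genes by limma with BY in either direction (45 by BH), so that the calls of FLT3, FCER1A, TNFSF11, SERPING1, APOE, NR1H3 and every other gene named above were lost with it. The difference of FLT3 was 2.78 in that fit, beside 2.49 without the covariate. Per the study's sample list the stages were hybridised on separate cartridges, their RNA extraction batches did not overlap and the late blocks had been stored longer, so that these and stage cannot be told apart.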

How the data were processed

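In all, 10 tumours were analysed, 5 per stage, grouped by the labels. The deposited values are a normalized signal, which the authors made in nSolver by scaling barcode counts to positive controls and then to housekeeping genes, with no background subtraction stated. The 14 control probes were deposited unscaled. Gene values were whole multiples of 1 step per tumour for at least 99.4% of genes (tolerance 0.0051). These recovered counts served depth, background and intervals only, because the control rows and the minimum value of late 4 were not on that scale, and no count test was run.

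Early minus late was fitted with limma 3.58.1 in R 4.3.3 (lmFit, eBayes with intensity trend) on log2(normalized count + 1) over 761 genes with a mean of at least 20, without covariates, and p-values were adjusted over all of them. The fit was tested on simulated data. Stage measures were compared by exact permutation (scipy 1.17.1), and figures were drawn with matplotlib 3.10.9.

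The members and lists were chosen with earlier results of these data known. Named genes are both members, the next 3 by difference, the 5 nearest each member, the tested plasminogen, serpin and lipid genes (except 1 lipid gene, not reported here and left out of that list's counts), and the called and extreme genes of the other lists. DEFB1, the glial and neural genes and single cell type markers were chosen after their values were seen. Alternatives were the pseudocount, background treatment, scaling, filter, variance trend, DV200, male dogs only, replicate block, BH rule and leaving out each tumour.

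Names were looked up in RefSeq's gene table for assembly UU_Cfam_GSD_1.0, where 773 of 800 were found by symbol and 4 by gene number (FABP7 is gene 476278, SERPINB2 gene 609604). Coordinates are left out because the panel's design used a different assembly.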

Additional observations from a re-analysis of the deposited data

Results flagged for a closer look

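By the gap measure used here neither FABP7 nor SERPINB2 had a tumour marked as apart in its stage, although FABP7 in late 1 was 39.7 against 1.00 to 15.1 in the other late tumours. Of 76 groups of 5 tumours checked over the named genes, 8 held a tumour whose gap to its nearest neighbour was a large part of the whole range. The cutoff marks about 1 in 20 groups when values are normally distributed, which was not tested for these linear counts. Every marked tumour was the highest of its group, so that no excess over chance is read from the 8.

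Early 2 was high in 3 genes. Its PTGS2 was 270 normalized counts, against 51.4 to 70.8 in the other early tumours. Its IL1B was 188, against 13.2 to 37.9. Its PLAUR was 210, against 52.9 to 92.9. Late 2 was high in IL1B with 73.0, against 7.44 to 22.7 in the other late tumours, and in THBD with 175, against 54.0 to 83.2. SERPINB2 was 723 in early 2, the second lowest early value, and 231 in late 2, the highest late value.

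The remaining values were 9105 for S100A10 in early 4, against 5272 to 6083, 1128 for LOC487977 in late 3, against 285 to 421, and 2364 for CCL4 in late 5, against 1446 to 1643.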

How the results depend on the processing

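FABP7 and SERPINB2 stood at places 1 and 2 in the order of early minus late in the alternatives fitted across all genes, except with the common background floor (places 4 and 1) and with male dogs only (places 1 and 5). Raising values to each tumour's own background, computed for these 2 genes only, put FABP7 (2.72) below SERPINB2 (3.40). FABP7 moved to 3.36 with a pseudocount of 10 and to 2.11 with the background floor, and over the fits that left out a tumour it was 4.54 to 5.63 and SERPINB2 2.91 to 3.73. Genes called higher in early and late CCH were 6 and 229 on unscaled counts, 42 and 35 with geometric mean scaling, 30 and 41 with total count scaling, 8 and 173 with positive control scaling, 64 and 208 by the BH rule, and 8 to 18 and 30 to 83 when a tumour was left out. The median of all tested genes was -0.18 as reported, 0.21 with geometric mean, 0.088 with total count and -0.55 with positive control scaling, and -0.73 unscaled. With male dogs only 0 and 0 genes were called by limma with BY (133 by BH, 278 at an unadjusted p under 0.05), and with DV200 as a covariate 0 and 0 (45 and 197). The replicate numbers did not pair the tumours (correlations of deviations from -0.20 to 0.16), and with the replicate block 0 and 1 genes were called (228 by BH, 321 unadjusted).

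Under geometric mean scaling the called members were 0 of the plasminogen and serpin list, 1 of the lipid list, 0 of the Notch list and 1 of the inflammatory list. The BH rule gave 9 inflammatory and 2 matrix protease genes. When a tumour was left out the lipid list had 0 to 1, the Notch list 0 to 1, the inflammatory list 3 to 6, the matrix protease list 0 to 1 and the plasminogen and serpin list 1 called members. Geometric mean scaling turned the sign of PLAUR (0.25), THBS1 (0.10), CD36 (0.22), PTGER2 (0.32), PTGER4 (0.33), PTGS2 (0.26) and MMP9 (0.26), with a scaling that moved the median of all tested genes from -0.18 to 0.21 and so moved all genes alike. Leaving out a tumour turned it within -0.47 to 0.063 for PLAUR, -0.18 to 0.064 for PTGER2, -0.22 to 0.093 for PTGER4, -0.55 to 0.16 for PTGS2, -0.24 to 0.29 for LRP1, -0.11 to 0.20 for S100A10, -0.44 to 0.15 for MMP9 and -0.33 to 0.049 for CD36. None of these genes was called, and the cause of the turns on leaving out a tumour was not tested. Of 468 values of 36 named genes under alternatives, 375 kept direction and call, 62 lost the call, 3 gained it and 28 turned sign. There were 5 tumours per stage, and FABP7 was below background in late 2, 3, 4 and 5, at a rounded count of 1 in late 2, 4 and 5. Its level in these tumours is bounded by background only, whereas late 1 measured 39.7 normalized counts against a background of 20.5.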
